A study of Homo sapiens with 4 samples.

Results

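The 10 genes described here carry glucose into the cell and through glycolysis, and were chosen by name: SLC2A1, SLC2A3, HK2, PFKFB3, TPI1, GAPDH, PGK1, ENO1, LDHA and PDK1. All 10 were listed in each of 4 single-cell tables, which together listed 23364 genes. The tables hold 10x Genomics 3′ single-cell RNA counts from 2 samples of KhES1, an established human embryonic stem cell (hESC) line, kept in mTeSR-1 medium (hESC 1 and hESC 2), and from 2 samples of blastoids, embryo-like structures grown from KhES1 cells in hydrogel with iBlastoid medium (blastoid 3 and blastoid 4). All 4 samples thus share 1 line with no genetic change, and the culture medium differed between the groups, so the medium and the blastoid state cannot be told apart. Titles give blastoids and stem cells 1 and the same day although the blastoid table names give a later one, so groups follow the sample descriptions. Nothing in the labels says that samples of a group came from separate cultures, so p-values measure only the spread between these samples, which may be technical.

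Glucose enters cells through facilitative transporters, of which SLC2A1 (GLUT1) is widespread and SLC2A3 (GLUT3) has a higher affinity for glucose. Hexokinase traps the sugar as glucose-6-phosphate, PFKFB3 makes the allosteric activator of phosphofructokinase, and TPI1 interconverts the triose phosphates. GAPDH, PGK1 and ENO1 act in the lower, energy-yielding reactions. LDHA turns pyruvate into lactate, and PDK1 inhibits pyruvate dehydrogenase in the mitochondrion. Primed pluripotent cells are known for high glycolytic flux, and several of these genes are textbook targets of hypoxia-inducible factors and of MYC.

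After filtering, 9607 cells were described: 2238 and 3175 in the hESC samples and 2278 and 1916 in the blastoid samples, with 13255214 to 17679447 UMIs per sample (a UMI is a tag that lets copies of 1 RNA molecule be counted once). Median UMIs per cell were 5769, 4996, 6207 and 8798 in hESC 1, hESC 2, blastoid 3 and blastoid 4, and mitochondrial genes took 8.72% to 11.2% of UMIs. The kept hESC cells all fell in pluripotent-like clusters, where the 15 pluripotency markers (POU5F1, SOX2, NANOG and others) summed to 7387 and 7656 per 1000000 UMIs (CPM). Blastoid cells fell in 3 classes named from marker genes: mesoderm/mesenchyme-like (1759 and 1171 cells, 77.2% and 61.1%), trophectoderm/amnion-like (414 and 632 cells, 18.2% and 33.0%) and pluripotent-like (105 and 113 cells, 4.61% and 5.90%). The 15 trophectoderm and amnion markers summed to 4794 and 5435 CPM in the class named for them, to 862 and 1122 CPM in mesoderm/mesenchyme-like cells and to 253 and 232 CPM in the hESC samples. Hypoblast and endoderm markers defined no cluster. The hESC libraries shared 1317 cell barcodes and the blastoid libraries 1035, and 26, 1310, 0 and 1010 of the kept cells of hESC 1, hESC 2, blastoid 3 and blastoid 4 carried a shared one. Leaving out the cells with a shared barcode thus took cells almost only from hESC 2 and blastoid 4. Such a fit also changes which cells stand for those samples. Member calls that changed in it are given beside each comparison. The class names were rebuilt from markers and may differ from those of the study.

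Because hypoxia-inducible factors and MYC act through short promoter motifs, promoter sequence is shown for 3 members whose level differed between blastoid and hESC samples. RefSeq promoter windows of 300 bases (GRCh38.p14) matched 9 of the 10 members, with 14 windows. Windows were searched on both strands for ACGTG and GCGTG, the core letters of the hypoxia response element, and for CACGTG, the E-box bound by MYC, which holds ACGTG on both strands and so overlaps it. ACGTG was in 8 of 14 member windows and in 21.4% of all 35116 windows, and GCGTG was in 9 of 14 and in 36.5%. CACGTG was in 4 of 14 member windows and in 7.26% of all. Either core was in 12 of 14 member windows, in at least 1 window of each of the 9 genes, and in 48.4% of all windows. Such a match is a description of the letters and not a binding site. All these motifs hold CG, and the windows compared were not matched for base content. GC was 36.3% in the PDK1 window at chr2:172555123, which holds neither core, and 65.0% to 78.3% in the other member windows. Only the stretch outside annotated exons is printed, on the plus strand, which is the strand of all 3 genes, with the matches in capitals.
PGK1, chrX:78103998-78104173, + strand: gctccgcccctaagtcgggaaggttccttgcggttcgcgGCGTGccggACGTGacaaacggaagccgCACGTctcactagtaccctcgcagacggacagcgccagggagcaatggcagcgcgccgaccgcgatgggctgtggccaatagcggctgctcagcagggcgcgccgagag
HK2, chr2:74834920-74835169, + strand: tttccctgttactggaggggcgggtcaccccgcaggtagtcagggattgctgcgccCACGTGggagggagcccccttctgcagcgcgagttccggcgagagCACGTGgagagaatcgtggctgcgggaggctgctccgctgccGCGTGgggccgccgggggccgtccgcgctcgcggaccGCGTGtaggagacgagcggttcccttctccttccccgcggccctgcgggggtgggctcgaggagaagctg
PFKFB3, chr10:6202694-6202865, + strand: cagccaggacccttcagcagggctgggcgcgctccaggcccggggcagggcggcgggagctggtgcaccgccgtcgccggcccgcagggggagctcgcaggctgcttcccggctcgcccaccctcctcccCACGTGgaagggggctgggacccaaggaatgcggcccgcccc
The HK2 stretch holds 2 CACGTG E-boxes and 2 GCGTG cores, the PFKFB3 stretch holds 1 E-box, and the PGK1 stretch holds 2 ACGTG cores and 1 GCGTG core without an E-box. HK2 and PFKFB3 each have 1 further window, not printed: that of PFKFB3 holds 1 GCGTG and no ACGTG, and that of HK2, wholly in annotated exons, holds both cores. The 3 genes did not move together: HK2 and PGK1 were lower in blastoid samples and PFKFB3 was higher, as given below.

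The levels of the 10 genes spanned more than 2 orders of magnitude, and since a 3′ library counts 1 end per molecule, CPM were not divided by length. GAPDH was the highest member in every sample, at 1793 to 2759 CPM, and PFKFB3 or HK2 was the lowest. ENO1, TPI1 and LDHA lay between 377 and 828 CPM in all 4 samples, and the ranges of ENO1 and TPI1 overlapped. Together the members took 0.438% and 0.472% of all UMIs in the hESC samples and 0.440% and 0.551% in the blastoid samples, so their summed share overlapped between the groups. Within blastoids the 10 members summed to 3631 and 4188 CPM in mesoderm/mesenchyme-like cells and to 7555 and 7826 CPM in trophectoderm/amnion-like cells. Most of the latter sum came from GAPDH (3644 and 4194 CPM) and SLC2A3 (1462 and 1173 CPM), so it does not describe each member.

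UMIs were summed per sample and tested with edgeR's quasi-likelihood test with Benjamini-Hochberg adjustment over all genes. An adjusted p under 0.05 made a call. Over all kept cells, 5 of the 10 members were called between blastoid and hESC samples (n = 2 and 2): SLC2A1, SLC2A3 and PFKFB3 rose and HK2 and PGK1 fell. In this comparison 49.9% of all 16332 genes tested were called (27.1% higher and 22.8% lower), so the members' share was that of the background. The median log2 fold change was 0.03 over the members and 0.05 over all genes. Leaving out 1 library leaves a single sample in 1 group, so the spread is then taken from the other group's pair alone. Counts of genes differed less between the hESC samples than between the blastoid samples (chi-square per degree of freedom 4.87 and 23.9). Calls gained or lost when 1 library is left out therefore depend on which pair remains, and no separate count of them is given. Below, calls lost in such a fit are stated, and for gained ones at most the effect size is given. Ranges of adjusted p over alternatives include these fits. With scaling by library size alone, the median over all genes moved from 0.05 to 0.18, and 63.1% of calls were higher in place of 54.3%, so each difference below is relative to a reference that depends on the scaling.

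**Figure D1:**
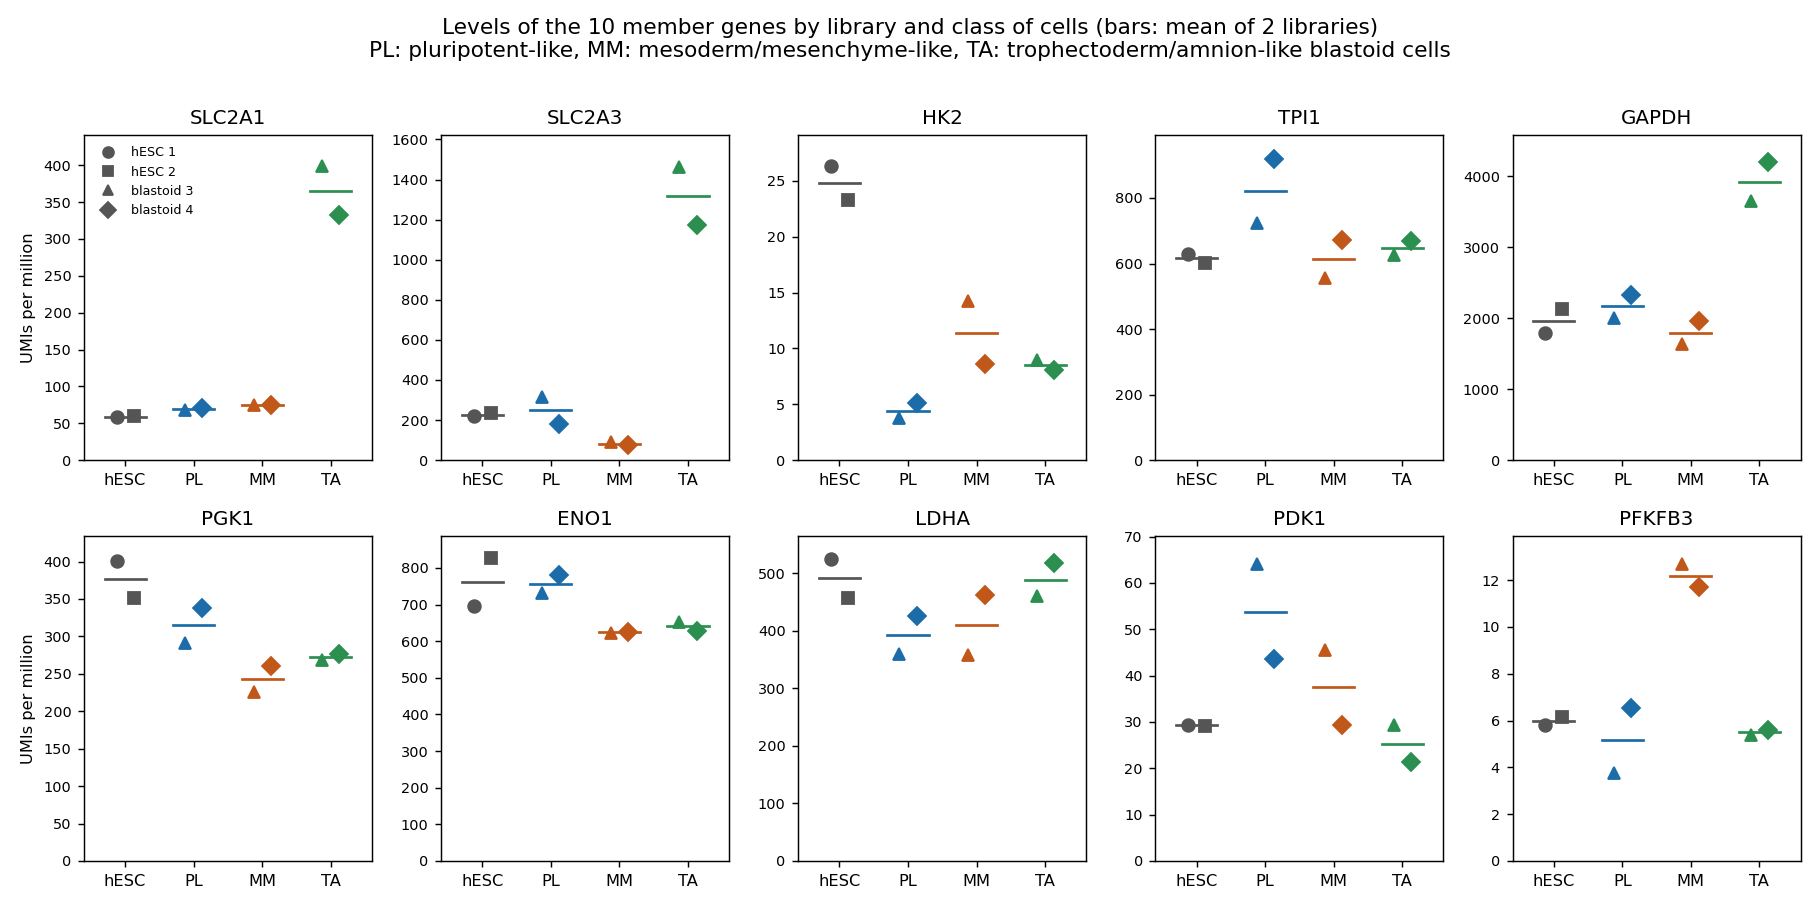
Level of each of the 10 genes in CPM (vertical axes, starting at 0), in the hESC samples and in the pluripotent-like (PL), mesoderm/mesenchyme-like (MM) and trophectoderm/amnion-like (TA) cells of the blastoid samples. Points are single libraries and bars the mean of 2. SLC2A1, SLC2A3 and GAPDH stand highest in TA cells, and HK2 is lower in every blastoid class than in the hESC samples.

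SLC2A1 and SLC2A3 rose over all blastoid cells, and both were highest in trophectoderm/amnion-like cells. SLC2A1 (ENSG00000117394.21, GRCh38 chr1:42925375-42959176, minus strand) was at 57.9 and 59.5 CPM in hESC 1 and hESC 2 and at 134 and 163 CPM in the blastoids. Both blastoid values lay above both hESC values, a log2 fold change of 1.22 ± 0.16 (SE; edgeR adjusted p = 0.000809), and this call held under every alternative tried (adjusted p from 2.01e-09 to 0.00871). In trophectoderm/amnion-like cells SLC2A1 was at 399 and 332 CPM, a log2 fold change against hESC of 2.61 ± 0.14 (6.10-fold, edgeR adjusted p = 3.34e-07). In mesoderm/mesenchyme-like cells it was at 74.6 and 74.9 CPM, a log2 fold change of 0.20 ± 0.13 that did not pass the test (edgeR adjusted p = 0.209). It passed there with scaling by library size alone (0.35, edgeR adjusted p = 0.0403) and with a marker gate, which gives each cell the class with the largest share of its markers detected (0.33, edgeR adjusted p = 0.0465; range over alternatives 0.0403 to 0.57). In pluripotent-like blastoid cells it was at 67.9 and 71.1 CPM, and the log2 fold change of 0.17 ± 0.16 did not pass the test (edgeR adjusted p = 0.465). These comparisons against hESC share the same 2 hESC samples.

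SLC2A3 (ENSG00000059804.15, GRCh38 chr12:7919230-7936275, minus strand) moved in opposite directions in different blastoid cells. Over all kept cells it was at 218 and 233 CPM in the hESC samples and at 354 and 461 CPM in the blastoids. The groups did not overlap, with a log2 fold change of 0.73 ± 0.18 (edgeR adjusted p = 0.012). That call was lost without hESC 1 (0.71, edgeR adjusted p = 0.102) and without hESC 2 (0.76, edgeR adjusted p = 0.079), with adjusted p from 6.9e-07 to 0.102 over all alternatives. In trophectoderm/amnion-like cells SLC2A3 reached 1462 and 1173 CPM, or 9.85 and 11.3 UMIs per cell, a log2 fold change against hESC of 2.52 ± 0.14 (5.73-fold, edgeR adjusted p = 6.17e-07). In mesoderm/mesenchyme-like cells it fell to 89.1 and 77.1 CPM, or 0.584 and 0.674 UMIs per cell, a log2 fold change of -1.59 ± 0.13 (edgeR adjusted p = 2.73e-06). Pluripotent-like blastoid cells were at 317 and 182 CPM, on either side of the hESC values, with a log2 fold change of 0.02 ± 0.18 (edgeR adjusted p = 0.947). For these cells the sign depended on how they were chosen: it was -0.55 with finer clusters (edgeR adjusted p = 0.0281) and -0.83 with the marker gate (edgeR adjusted p = 0.00111), in a range from 0.00111 to 0.997. SLC2A14, a near-identical copy of SLC2A3, was at 0.679 to 1.98 CPM over all kept cells and at 6.10 and 5.11 CPM in trophectoderm/amnion-like cells. How reads that match both copies were counted is not given in the sources used here.

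The class with most of the transporter RNA was a minority of blastoid cells. Trophectoderm/amnion-like cells held 18.5% and 34.3% of all UMIs of blastoid 3 and blastoid 4, but 76.1% and 87.2% of the SLC2A3 UMIs and 54.9% and 70.0% of the SLC2A1 UMIs. They held 33.3% and 52.2% of the GAPDH UMIs, 13.0% and 34.0% of the HK2 UMIs and 9.15% and 20.9% of the PFKFB3 UMIs. Mesoderm/mesenchyme-like cells held 19.2% and 9.68% of the SLC2A3 UMIs beside 76.3% and 57.9% of all UMIs. Blastoid 4, with the larger trophectoderm/amnion-like share, also had the higher SLC2A1, SLC2A3 and GAPDH level over all kept cells. In sums over all cells of a sample, a change in the share of a class and a change in RNA per cell cannot be told apart.

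HK2 was lower in blastoids in each comparison with hESC. HK2 (ENSG00000159399.9, GRCh38 chr2:74833981-74893359, plus strand), the inducible hexokinase that docks on mitochondria, was at 26.3 and 23.3 CPM in the hESC samples against 12.7 and 8.15 CPM in blastoids. Neither blastoid value reached the hESC values, and the log2 fold change was -1.39 ± 0.21 (edgeR adjusted p = 0.00145), a call kept under every alternative tried (adjusted p from 6.58e-08 to 0.00751). HK2 was lower than in hESC in trophectoderm/amnion-like cells (8.97 and 8.08 CPM, log2 fold change -1.57 ± 0.19, edgeR adjusted p = 7.58e-05) and in mesoderm/mesenchyme-like cells (14.2 and 8.60 CPM, -1.27 ± 0.21, edgeR adjusted p = 0.000383). In pluripotent-like blastoid cells it was at 3.77 and 5.08 CPM, which is only 3 and 7 UMIs, and the log2 fold change of -2.50 ± 0.36 was called (edgeR adjusted p = 6.66e-05). That size depended on how the cells were chosen, being -1.04 with the marker gate (edgeR adjusted p = 0.00384) and -3.05 without shared barcodes, and the call held under every alternative tried (adjusted p from 5.17e-10 to 0.00384). HK1, the more general hexokinase, fell as well over all kept cells, from 87.5 and 83.6 CPM to 39.8 and 53.1 CPM (2.00-fold lower, edgeR adjusted p = 0.00361). HK2 supplied 23.1% and 21.8% of the HK1 and HK2 UMIs in the hESC samples and 24.2% and 13.3% in blastoid 3 and blastoid 4, so the split overlapped between the groups.

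**Figure D2:**
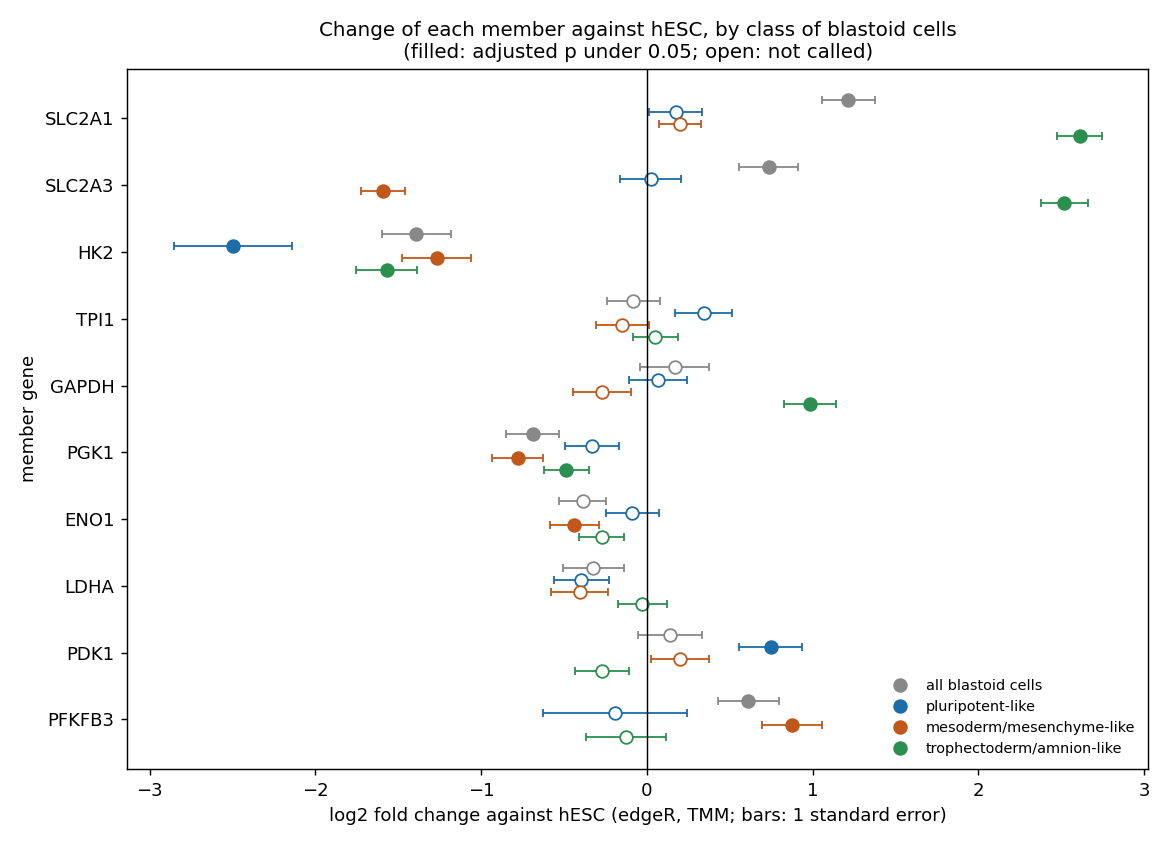
Log2 fold change of each gene against the 2 hESC samples (horizontal axis, with SE bars) for pluripotent-like, mesoderm/mesenchyme-like and trophectoderm/amnion-like blastoid cells. Grey points show all kept blastoid cells. Filled points have an edgeR adjusted p under 0.05. SLC2A3 lies at 2.52 in trophectoderm/amnion-like and at -1.59 in mesoderm/mesenchyme-like cells, and HK2 is below 0 in all 3 classes.

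PFKFB3 was a rare transcript in every sample. It was at 5.81 and 6.16 CPM in the hESC samples (77 and 98 UMIs), against 10.9 and 9.22 CPM in blastoids (164 and 163 UMIs). The blastoid values were both higher, with a log2 fold change of 0.61 ± 0.18 (edgeR adjusted p = 0.0281), but the call was lost without hESC 1 (0.59, edgeR adjusted p = 0.177), without hESC 2 (0.63, edgeR adjusted p = 0.152) and with DESeq2 (adjusted p = 0.186), in a range from 0.00413 to 0.186. The rise was seen in mesoderm/mesenchyme-like cells, at 12.7 and 11.7 CPM (log2 fold change 0.87 ± 0.18, edgeR adjusted p = 0.00196). Trophectoderm/amnion-like cells, at 5.38 and 5.61 CPM, did not pass the test against hESC (-0.13 ± 0.24, edgeR adjusted p = 0.676). Mesoderm/mesenchyme-like cells held 89.0% and 73.6% of the PFKFB3 UMIs of blastoid 3 and blastoid 4. PFKFB4, a paralogue with the same bifunctional activity, was at 4.22, 3.58, 9.80 and 5.26 CPM in the 4 samples and was called higher in trophectoderm/amnion-like cells (log2 fold change 1.63, edgeR adjusted p = 0.0014).

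Among TPI1, GAPDH, PGK1 and ENO1, PGK1 fell and the others did not pass the test over all kept cells. PGK1 (GRCh38 chrX:77910739-78129296, plus strand), which makes the first ATP of the pathway, was at 401 and 351 CPM in the hESC samples against 237 and 272 CPM in blastoids. Its groups did not overlap, with a log2 fold change of -0.69 ± 0.16 (edgeR adjusted p = 0.00962), and the call was lost without hESC 1 (-0.57, edgeR adjusted p = 0.13; range over alternatives 1.68e-06 to 0.13). PGK1 was called lower in mesoderm/mesenchyme-like cells (226 and 260 CPM, -0.78 ± 0.15, edgeR adjusted p = 0.00144) and in trophectoderm/amnion-like cells (268 and 277 CPM, -0.49 ± 0.14, edgeR adjusted p = 0.0125), the latter lost without hESC 1 (-0.39, edgeR adjusted p = 0.199; range 0.000658 to 0.199). The PGK1 interval in the annotation overlaps ATP7A on the same strand, and how reads in the overlap were counted is not given in the sources used here.

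GAPDH (GRCh38 chr12:6533927-6538374, plus strand), the dehydrogenase often used as a reference transcript, was not level across these cells. It was at 1793 and 2130 CPM in the hESC samples against 2021 and 2759 CPM in blastoids, where blastoid 3 lay between the hESC values, and the log2 fold change of 0.17 ± 0.21 did not pass the test (edgeR adjusted p = 0.539). Over the alternatives that value ran from -0.17 to 0.43, the latter without blastoid 3. In trophectoderm/amnion-like cells GAPDH was at 3644 and 4194 CPM, above both hESC samples, with a log2 fold change of 0.98 ± 0.16 (edgeR adjusted p = 0.000516). In mesoderm/mesenchyme-like cells it was at 1629 and 1965 CPM, and the log2 fold change of -0.27 ± 0.17 did not pass (edgeR adjusted p = 0.209). There it ran from -0.48 (without blastoid 4) to -0.09 over the alternatives.

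TPI1 (GRCh38 chr12:6867119-6870948, plus strand), which interconverts the 2 triose phosphates, was at 629 and 603 CPM in the hESC samples against 579 and 691 CPM in blastoids. The 2 groups overlapped, with a log2 fold change of -0.08 ± 0.16 (edgeR adjusted p = 0.7), which turned to 0.04 with scaling by library size alone. Over the alternatives the TPI1 value ran from -0.30 (without blastoid 4) to 0.10. ENO1 (GRCh38 chr1:8861000-8879250, minus strand), an enolase, was at 698 and 828 CPM in the hESC samples against 635 and 639 CPM in blastoids. Both blastoid values were below both hESC values, but the log2 fold change of -0.39 ± 0.14 missed the threshold (edgeR adjusted p = 0.0568). ENO1 was at -0.32 without blastoid 3 and at -0.48 without blastoid 4, in a range from -0.51 to -0.26 over all alternatives. It passed without shared barcodes (-0.51, edgeR adjusted p = 0.0275), with DESeq2 (-0.39, DESeq2 adjusted p = 0.0332), with sums thinned to the smallest (-0.40, edgeR adjusted p = 0.0469) and with all deposited cells (-0.39, edgeR adjusted p = 0.0481). Under the other alternatives that keep all 4 samples, scaling by library size alone among them, it did not pass. ENO1 was called lower in mesoderm/mesenchyme-like cells (-0.44 ± 0.15, edgeR adjusted p = 0.0253). The call there was lost with scaling by library size alone (-0.29, edgeR adjusted p = 0.0909), and without hESC 1 (-0.54) or hESC 2 (-0.34).

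At the pyruvate end of the pathway neither member passed the test over all kept cells. LDHA (GRCh38 chr11:18394388-18408425, plus strand) was at 525 and 458 CPM in the hESC samples against 377 and 479 CPM in blastoids, the latter (blastoid 4) inside the hESC range. The log2 fold change was -0.32 ± 0.18 (edgeR adjusted p = 0.178), and it passed without shared barcodes (-0.53, edgeR adjusted p = 0.0247). Over the alternatives it ran from -0.60 (without blastoid 4) to -0.10. PDK1 (GRCh38 chr2:172555373-172608669, plus strand) was at 29.4 and 29.2 CPM in the hESC samples against 43.6 and 27.7 CPM in blastoids, which lay on either side of the stem cells. Its log2 fold change of 0.14 ± 0.19 did not pass (edgeR adjusted p = 0.568). Over the alternatives it ran from -0.14 to 0.36, the latter without blastoid 4. In the annotation, genes on the other strand overlap 8 of the 10 members (all but SLC2A3 and LDHA), and whether counting used strand is not given in the sources used here.

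In pluripotent-like blastoid cells, PDK1 rose and HK2 fell, and the other 8 members did not pass the test against hESC, where 24.7% of 14029 genes were called (13.2% higher and 11.4% lower). The class lies in different clusters in the 2 groups: hESC cells are in clusters 0, 2, 4, 7 and 8, while 188 of the blastoid cells are in cluster 10, which holds no hESC cell, and the other 30 are in clusters 4 and 8. PDK1 was at 64.1 and 43.5 CPM in these cells, both above the hESC samples (log2 fold change 0.75 ± 0.19, edgeR adjusted p = 0.00754). That call was lost without hESC 1 (0.78, edgeR adjusted p = 0.0644), without hESC 2 (0.72, edgeR adjusted p = 0.0869), without blastoid 3 (0.55, edgeR adjusted p = 0.0549) and with DESeq2 (adjusted p = 0.1), in a range from 0.00174 to 0.207. Without blastoid 4 PGK1 was at -0.55 in place of -0.33 and LDHA at -0.63 in place of -0.40. Both were called lower without shared barcodes, PGK1 at -0.70 (edgeR adjusted p = 0.000127) and LDHA at -0.68 (edgeR adjusted p = 0.000164). In that fit 21.9% of 11848 genes were called. PGK1 was also called lower with the marker gate (-0.52, edgeR adjusted p = 0.0341) and LDHA with no filter on low counts (-0.45, edgeR adjusted p = 0.0328). TPI1 was called higher with scaling by library size alone (0.42, edgeR adjusted p = 0.0376). These cells were few and deeper than the hESC cells, with 7564 and 12452 median UMIs. Trophectoderm and amnion markers summed to 1338 and 936 CPM in them, against 253 and 232 CPM in hESC, and their part in these differences was not tested.

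Against the same hESC samples, 5 of 10 members were called in mesoderm/mesenchyme-like cells, 1 higher (PFKFB3) and 4 lower (SLC2A3, HK2, PGK1 and ENO1), beside 55.4% of 15685 genes tested (28.8% higher and 26.6% lower). The members' median log2 fold change there was -0.34 and that of all genes 0.03, which moved to 0.19 with scaling by library size alone. LDHA was at -0.67 without blastoid 4, in place of -0.41. Without shared barcodes it was called lower as well, at -0.65 (edgeR adjusted p = 0.00571). The same held with no filter on low counts (-0.37, edgeR adjusted p = 0.0366) and with the marker gate (-0.51, edgeR adjusted p = 0.0268). In trophectoderm/amnion-like cells 5 members were called, 3 higher (SLC2A1, SLC2A3 and GAPDH) and 2 lower (HK2 and PGK1), beside 58.5% of 15101 genes tested (30.5% higher and 28.0% lower). The members' median there was -0.08 and that of all genes 0.01. Without shared barcodes ENO1 was also called lower, at -0.39 in place of -0.27 (edgeR adjusted p = 0.0391; range 0.0391 to 0.581).

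Members also differed between classes of the same blastoid samples. Trophectoderm/amnion-like cells were compared with mesoderm/mesenchyme-like cells with the blastoid sample as a block, and 9 of 10 members were called, 7 higher and 2 lower, beside 51.0% of 13936 genes tested (25.8% higher and 25.2% lower). The classes were built from the same cells with the glycolytic and related genes left out of clustering, but genes that vary with them were used, so these p-values do not come from independent groups. SLC2A3 was 17.3-fold higher (log2 difference 4.11 ± 0.10, edgeR adjusted p = 1.23e-14), SLC2A1 was 5.33-fold higher (2.41 ± 0.09, edgeR adjusted p = 2.11e-12) and GAPDH was 2.39-fold higher (1.26 ± 0.05, edgeR adjusted p = 2.18e-12). These 3 calls held under every alternative tried, and in both blastoid samples the trophectoderm/amnion-like level was the higher one. LDHA was higher by a log2 difference of 0.39 ± 0.07 (edgeR adjusted p = 0.000226), at 460 and 518 CPM against 359 and 463 CPM.

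PGK1 (0.30 ± 0.08), TPI1 (0.21 ± 0.07) and ENO1 (0.17 ± 0.06) were called higher in trophectoderm/amnion-like cells, and PFKFB3 (-1.01 ± 0.24) and PDK1 (-0.41 ± 0.13) were called lower, with edgeR adjusted p of 0.00395, 0.0187, 0.0387, 0.00238 and 0.0166 in that order. Without the block on sample, 4 members were called (SLC2A1, SLC2A3, GAPDH and PFKFB3), beside 32.9% of all genes tested. The calls of LDHA, PGK1, TPI1, ENO1 and PDK1 were then lost. DESeq2 called 5 members, beside 23.6% of genes, and PFKFB3 was not among them (-1.03, adjusted p = 0.16; range 0.000127 to 0.16). With thinned sums PDK1 was at -0.12 (edgeR adjusted p = 0.799; range 0.00303 to 0.799), and without shared barcodes ENO1 lost its call (0.20, edgeR adjusted p = 0.136; range 0.00327 to 0.64). Untested CPM ratios within 1 sample were smaller in blastoid 4 than in blastoid 3 for LDHA (log2 0.16 and 0.36) and PGK1 (0.09 and 0.25). In blastoid 4 TPI1 was at 669 CPM in trophectoderm/amnion-like and at 673 CPM in mesoderm/mesenchyme-like cells, a log2 ratio of -0.0077. With scaling by library size alone, the median over all genes moved from -0.02 to -0.16, 39.0% of calls were higher in place of 50.6%, and the TPI1, PGK1 and ENO1 calls were lost (log2 differences 0.08, 0.16 and 0.04).

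Pluripotent-like blastoid cells also differed from both other classes. Against mesoderm/mesenchyme-like cells 7 members were called, beside 34.3% of 13936 genes (18.7% higher and 15.5% lower). SLC2A3 (log2 difference 1.64 ± 0.11), PDK1, TPI1, PGK1, GAPDH and ENO1 were higher and PFKFB3 was lower. TPI1 was at 724 and 918 CPM in pluripotent-like and at 557 and 673 CPM in mesoderm/mesenchyme-like cells (0.52, edgeR adjusted p = 3.23e-05). Against trophectoderm/amnion-like cells 7 members were called, beside 34.8% of genes (17.8% higher and 17.0% lower), with SLC2A1, SLC2A3, GAPDH and LDHA lower and TPI1, ENO1 and PDK1 higher in pluripotent-like cells. The SLC2A1 difference was -2.39 (edgeR adjusted p = 4.56e-10) and the PDK1 difference was 1.04 (edgeR adjusted p = 0.000266). Without the block the counts of called members were 1 and 4, beside 22.2% and 23.0% of genes. Without shared barcodes PGK1 (0.34, edgeR adjusted p = 0.0984), PDK1 (0.66, edgeR adjusted p = 0.0508) and PFKFB3 (-1.85, edgeR adjusted p = 0.0678) lost their calls against mesoderm/mesenchyme-like cells. Against trophectoderm/amnion-like cells TPI1 (0.12, edgeR adjusted p = 0.599) and ENO1 (0.14, edgeR adjusted p = 0.508) lost theirs. SLC2A1 did not differ beyond the test between pluripotent-like and mesoderm/mesenchyme-like cells (0.02, edgeR adjusted p = 0.929), and was called lower in pluripotent-like cells with the marker gate (-0.31, edgeR adjusted p = 0.0344; range 0.0344 to 0.997).

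The share of cells with at least 1 UMI was compared at 2000 UMIs drawn at random from each cell, which left 1803, 2202, 2171 and 1874 cells and dropped 435, 973, 107 and 42 shallower ones in hESC 1, hESC 2, blastoid 3 and blastoid 4. SLC2A1 was then detected in 10.3% and 11.8% of hESC cells and in 19.0% and 22.7% of blastoid cells, HK2 in 4.71% and 4.72% and in 1.89% and 1.60%. SLC2A3 was detected in 32.3% and 37.7% of hESC cells and in 29.4% and 35.8% of blastoid cells, so its share overlapped although its summed level was higher. The groups did not overlap for 6 of the 10 members: SLC2A1 and PFKFB3 were higher and HK2, PGK1, ENO1 and LDHA lower in blastoid cells. Of 11124 genes with a mean share of at least 1%, 72.7% did not overlap (44.7% higher and 28.1% lower), so non-overlap was no more frequent among the members. Drawn to 1000 UMIs, 5 members did not overlap, LDHA being the one that then did. The exact two-sided permutation test gave p = 0.333 for each of these 6, the smallest value that 2 samples against 2 allow, so none can pass a threshold. Unthinned, the differences of PGK1, ENO1 and LDHA turned positive, at 9.96, 6.25 and 9.50 percentage points, against -5.50, -7.08 and -5.39 after thinning. No class was fixed as lacking these genes, so no level of free RNA stands beside these shares.

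By class, SLC2A3 was detected in 88.4% (exact 95% binomial interval 84.6% to 91.5%) and 79.9% (76.5% to 83.0%) of thinned trophectoderm/amnion-like cells of blastoid 3 and blastoid 4. In mesoderm/mesenchyme-like cells it was detected in 16.5% (14.8% to 18.3%) and 12.9% of cells. A typical trophectoderm/amnion-like cell had 3 and 2 SLC2A3 UMIs at this depth (medians), and a typical mesoderm/mesenchyme-like cell had 0. SLC2A1 was in 181 of 362 and in 260 of 616 trophectoderm/amnion-like cells and in 12.9% and 13.1% of mesoderm/mesenchyme-like cells. HK2 was in 1.20% of 83 pluripotent-like cells of blastoid 3 and in 0 of 108 of blastoid 4, which at this depth allows up to 3.36% of cells with a UMI. Unthinned, 7 of the 113 cells of blastoid 4 had one (6.19%), so the thinned share describes the depth. These intervals cover counting error only.

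**Figure D3:**
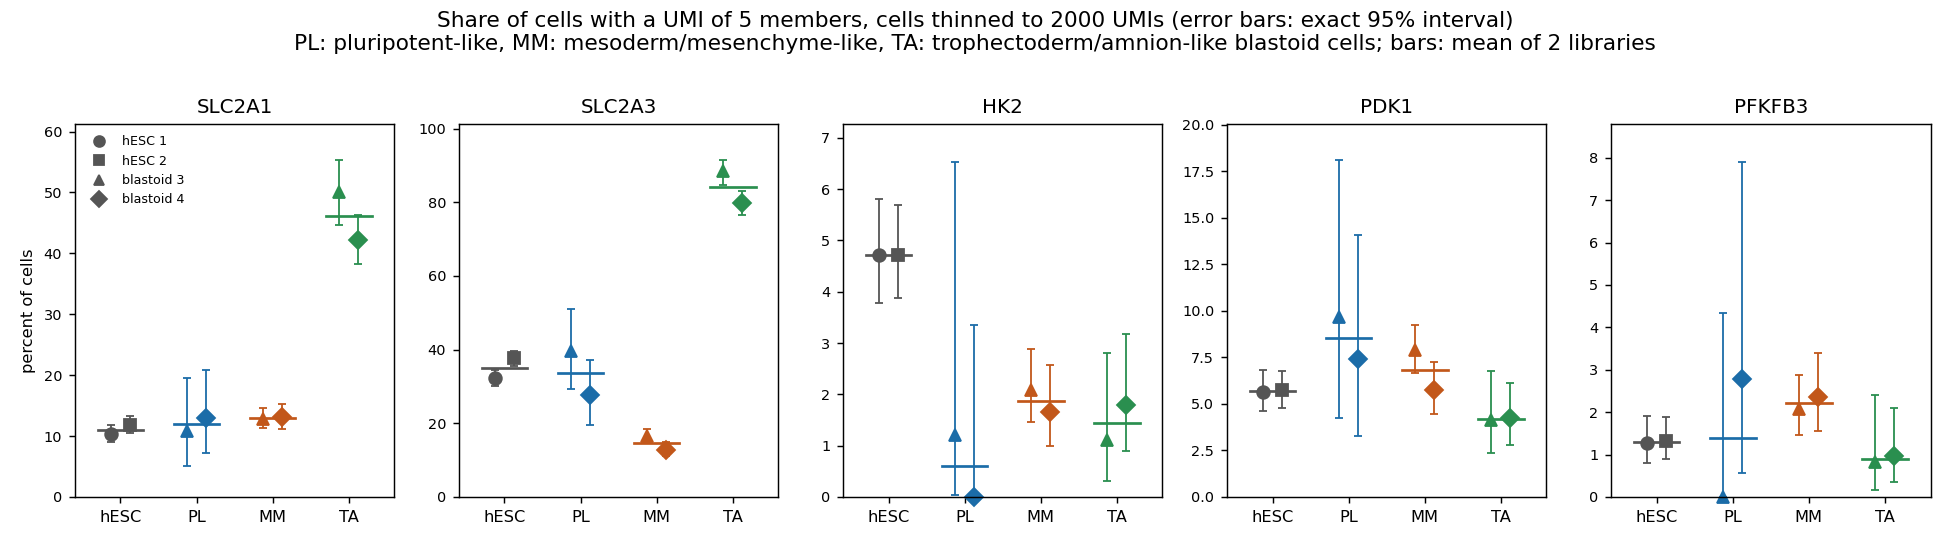
Percent of cells with at least 1 UMI after thinning to 2000 UMIs per cell (vertical axis) for SLC2A1, SLC2A3, HK2, PDK1 and PFKFB3, by library and class, with exact 95% binomial intervals. SLC2A3 is in 88.4% and 79.9% of trophectoderm/amnion-like cells and in 16.5% and 12.9% of mesoderm/mesenchyme-like cells.

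From cell to cell, most pairs of members had correlations near 0, and some pairs of abundant enzymes had higher ones. Over thinned cells of 1 sample and class, the median correlation between pairs ranged from -0.007 to 0.05. PGK1 and LDHA had the highest, at 0.364 and 0.362 in hESC 1 and hESC 2 (1803 and 2202 cells), against 0.041 and -0.011 in mesoderm/mesenchyme-like cells of blastoid 3 and blastoid 4. TPI1 and LDHA were at 0.261 and 0.240 in the hESC samples and at 0.183 and 0.268 in trophectoderm/amnion-like cells. The cells of a sample share a library, and these values describe sparse counts. In trophectoderm/amnion-like cells SLC2A3 had a mean of 2.99 and 2.36 UMIs after thinning and a variance 1.91 times the mean in both samples.

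Isozyme use was described as the share of a family's UMIs that came from the member. SLC2A1 gave 21.0% and 20.3% of the SLC2A1 and SLC2A3 UMIs in the hESC samples, 21.4% and 22.1% in trophectoderm/amnion-like cells and 45.5% and 49.3% in mesoderm/mesenchyme-like cells, where SLC2A3 was low. LDHA gave 26.2% and 21.9% of the LDHA and LDHB UMIs in the hESC samples and 41.6% and 43.9% in trophectoderm/amnion-like cells. LDHB, the isoform found mainly in tissues that oxidise lactate, went from 1483 and 1632 CPM in hESC to 645 and 661 CPM in trophectoderm/amnion-like cells and fell over all kept cells (log2 fold change -0.84, edgeR adjusted p = 0.0025). LDHA itself had a log2 fold change of -0.03 in trophectoderm/amnion-like cells against hESC (edgeR adjusted p = 0.883). PDK1 gave 27.1% and 27.4% of the PDK1 to PDK4 UMIs in the hESC samples and 46.4% and 37.3% in pluripotent-like blastoid cells. The share of PFKFB3 among the PFKFB genes was 36.2% and 33.1% in the hESC samples and 49.8% and 64.5% in mesoderm/mesenchyme-like cells.

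**Figure D4:**
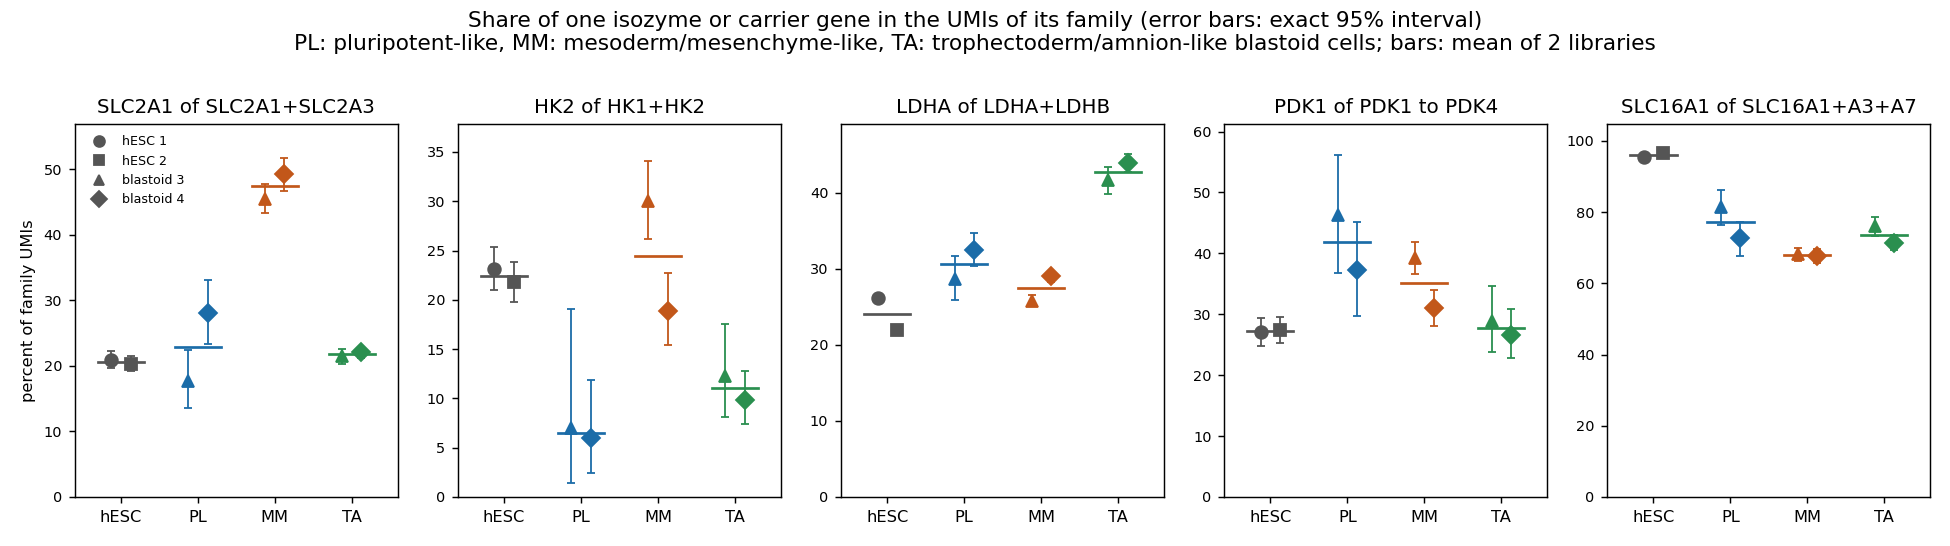
Share of a family's UMIs from SLC2A1 (of SLC2A1 and SLC2A3), HK2 (of HK1 and HK2), LDHA (of LDHA and LDHB), PDK1 (of PDK1 to PDK4) and SLC16A1 (of 3 monocarboxylate transporters), in percent (vertical axes), by library and class. The LDHA share is highest in trophectoderm/amnion-like cells (41.6% and 43.9%), and the SLC16A1 share is lower in blastoid (71.1% and 69.6%) than in hESC samples (95.4% and 96.7%).

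The monocarboxylate transporters, which carry lactate across the membrane, changed as well. SLC16A3 (MCT4), a monocarboxylate transporter of lactate-releasing cells, rose from 8.83 and 6.03 CPM in the hESC samples to 61.3 and 65.3 CPM in the blastoid samples (log2 fold change 2.97 ± 0.21, edgeR adjusted p = 5.52e-05). SLC16A1 (MCT1) fell from 221 and 247 CPM to 187 and 172 CPM (-0.51, edgeR adjusted p = 0.012). SLC16A1 nevertheless gave most of the UMIs of this family in every sample, 95.4% and 96.7% in hESC and 71.1% and 69.6% in blastoids.

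Clusters gave a finer view of the transporters. In the hESC samples, SLC2A3 lay between 154 and 254 CPM in 4 of the 5 clusters and at 46.7 and 63.3 CPM in the other one (number 8), whose cells had few mitochondrial UMIs (median 0.295%) and 1134 median UMIs. ENO1 was at 1007 and 1028 CPM in that cluster and LDHA at 695 and 579 CPM, and the part of cell quality in these values was not tested. Among mesoderm/mesenchyme-like clusters, SLC2A3 was at 195 and 203 CPM in cluster 11 and between 51.5 and 107 CPM in the others. SLC2A1 in that cluster 11 rested on 11 and 15 UMIs, at 34.7 and 26.2 CPM. PFKFB3 was at 2.95 CPM (5 UMIs) in cluster 9 of blastoid 3 and between 11.1 and 16.9 CPM in clusters 1, 5 and 6.

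**Figure D5:**
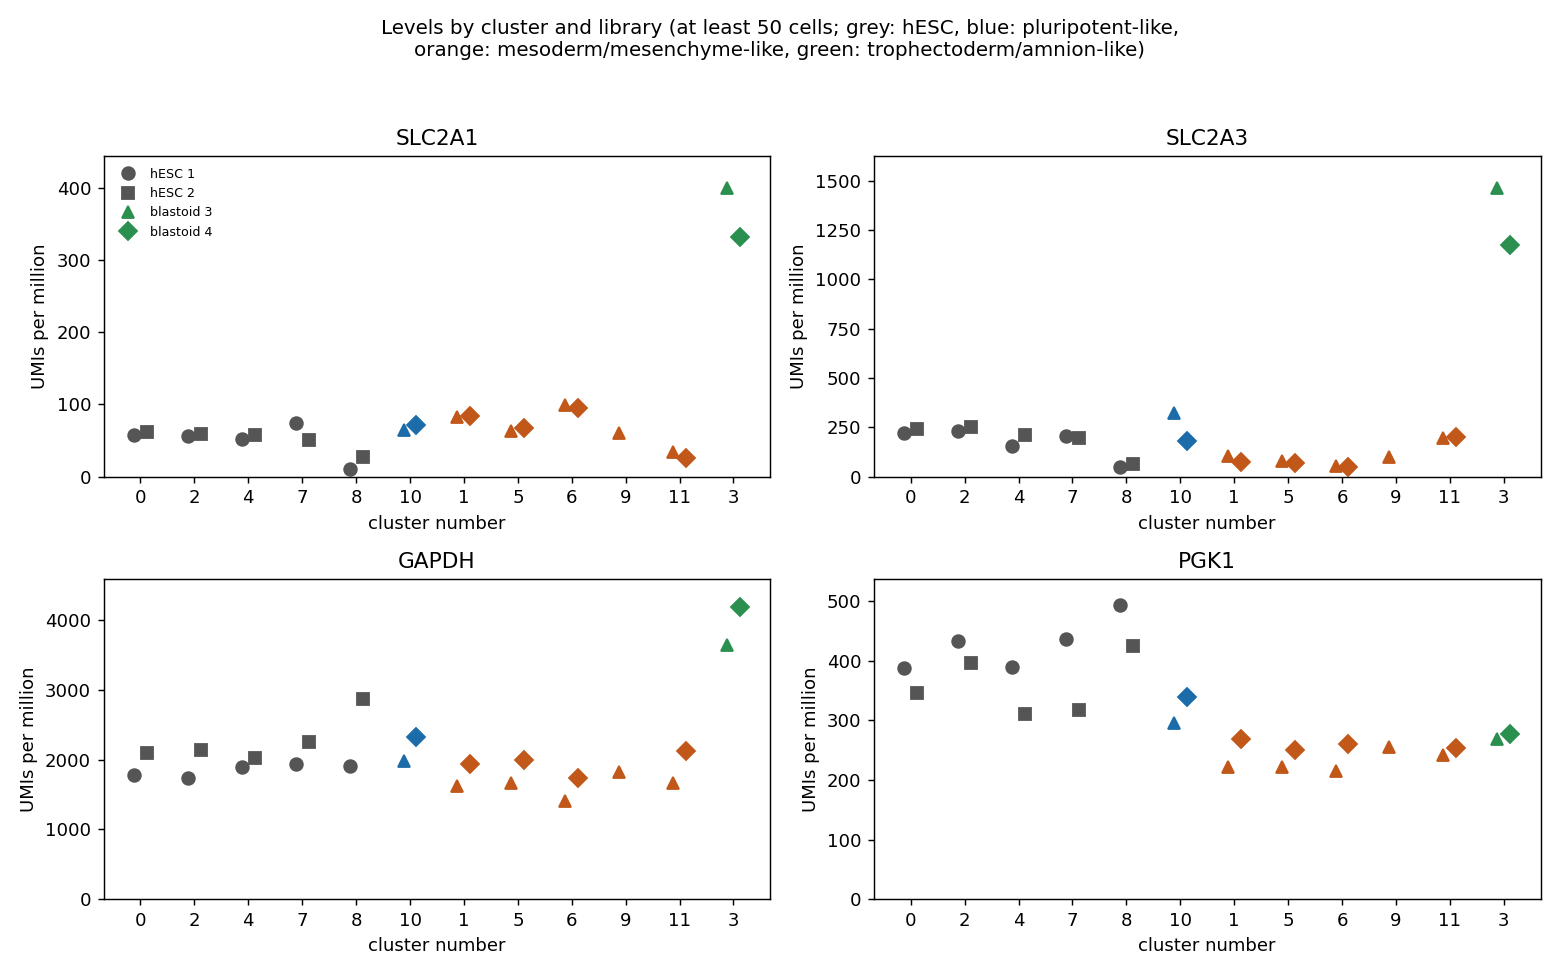
Level of SLC2A1, SLC2A3, GAPDH and PGK1 in CPM (vertical axes) in each cluster (number on the horizontal axis) and library, for clusters with at least 50 cells of that library. Cluster 3 is the trophectoderm/amnion-like class and holds the highest SLC2A1, SLC2A3 and GAPDH values, while PGK1 lies between 310 and 493 CPM in the hESC clusters and between 214 and 339 CPM in the blastoid clusters.

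Over the 23 sums per cluster and sample, the genes whose pattern was most like that of the summed members were FTH1 (Pearson r of log2 CPM 0.927), which encodes a ferritin subunit, CDV3 (0.899), HPS1 (0.878), LCMT1 (0.863) and ECH1 (0.855), out of 4175 genes ranked. Among pairs of members, PGK1 and LDHA were most alike (0.789), SLC2A3 was most like GAPDH (0.682) and ENO1 was least like PFKFB3 (-0.795). These points share libraries and depth, and the r describes them only.

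The wider pathway was read from lists of other genes. Of 99 tested genes of all lists without the members, 18 rose and 34 fell over all kept cells, with a median log2 fold change of -0.07, beside 27.1% and 22.8% of all genes tested. In the list of other glycolytic steps and isozymes 2 of 17 rose and 8 fell: PFKP, a phosphofructokinase isoform, rose (0.99, edgeR adjusted p = 0.00251), PFKM rose (0.44, edgeR adjusted p = 0.0308), and ENO2 (-1.73, edgeR adjusted p = 0.000169), ALDOC (-1.66, edgeR adjusted p = 0.000243) and GPI (-0.99, edgeR adjusted p = 0.0008) fell. Of the other partners, PFKL (0.51), PKM (0.46), PGAM1 (-0.45) and ALDOA (-0.33) did not pass the test. In the list of glucose transport and hexokinases 1 of 11 rose, SLC2A13 (0.72, edgeR adjusted p = 0.00675), and 3 fell. ALDOA was at only 8.9 to 14.2 CPM and shares its strand with an overlapping gene of the annotation, so its value is uncertain.

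Of 18 genes of the branch pathways (pentose phosphate, glycogen and serine synthesis), 10 fell over all kept cells by edgeR and 8 did not pass the test, with a median of -0.57, where 22.8% of all genes fell. TKT, the transketolase of the pentose phosphate pathway, went from 863 and 853 CPM in hESC to 260 and 329 CPM in blastoids (-1.66, edgeR adjusted p = 0.000345). UGP2, which makes UDP-glucose for glycogen, went from 723 and 840 CPM to 248 and 201 CPM (-1.93, edgeR adjusted p = 7.76e-05), and within blastoids it was at 106 and 68.9 CPM in mesoderm/mesenchyme-like and at 665 and 334 CPM in trophectoderm/amnion-like cells. Of 4 tested gluconeogenesis genes 2 fell, PCK2 among them (-1.70, edgeR adjusted p = 0.000441). In the list of pyruvate and lactate handling 5 of 15 rose, with MPC1, a subunit of the mitochondrial pyruvate carrier, at 1.19 (edgeR adjusted p = 0.000734), and 4 fell, with PDP2 at -0.59 and PDK3 at -0.55 (edgeR adjusted p = 0.0168 and 0.00982).

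Of 26 tested hypoxia-response genes, 8 rose and 4 fell over all kept cells (median log2 fold change 0.29), where 27.1% of all genes rose and 22.8% fell. Trophectoderm/amnion-like cells had 14 higher and 4 lower (0.50), where 30.5% of all genes rose and 28.0% fell. EPAS1, the HIF-2α subunit, was at 0.754 and 1.63 CPM in hESC, at 422 and 431 CPM in trophectoderm/amnion-like cells and at 27.3 and 25.9 CPM in mesoderm/mesenchyme-like cells. CA12, a carbonic anhydrase, rose over all kept cells (3.03, edgeR adjusted p = 4.23e-05), and ADM (-2.16, edgeR adjusted p = 0.000368) and EGLN3, a HIF prolyl hydroxylase (-1.68, edgeR adjusted p = 0.000401), fell. HIF1A was at 141 and 149 CPM in hESC and at 174 and 154 CPM in blastoids, a log2 fold change of 0.05 that did not pass the test (edgeR adjusted p = 0.77). Among regulators of glycolytic genes, MYC went from 24.4 and 21.0 CPM to 7.81 and 8.82 CPM (-1.57, edgeR adjusted p = 0.000475), LIN28A fell (-1.34, edgeR adjusted p = 0.000817) and MYCN rose (0.93, edgeR adjusted p = 0.00798). TXNIP, which limits glucose uptake, had a log2 fold change of 0.69 that did not pass the test (edgeR adjusted p = 0.068). LIN28A is also 1 of the pluripotency markers that named the classes.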

How the data were processed

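For each sample the authors deposited a matrix of raw UMI counts, genes by cell barcodes, named by symbol. The submitters' processing notes name Cell Ranger and GRCh38; versions, annotation and filters are not given in the sources used here. Barcodes were kept if they had 500 genes or more, 20% mitochondrial UMIs or less and no doublet call by Scrublet, which marked 73 of 9680 (0.754%), so that doublets of like cells probably remain. Cells were clustered with scanpy 1.11.5 (2000 variable genes without the metabolic lists, 30 principal components, 15 neighbours, Leiden resolution 0.5) and clusters named by at least 3 markers detected in 10% of cells. Counts were summed per sample and class and tested with edgeR 4.0.16 (TMM, filterByExpr, quasi-likelihood, Benjamini-Hochberg; R 4.3.3), with the standard error as the log2 fold change over the root of F. Blastoid and hESC sums entered without a block, and classes within blastoid samples with the sample as a block. Alternatives included DESeq2 1.42.0, other scalings, filters, depths and class definitions, and leaving out each library. On simulated counts for the comparison of all kept cells, 31.0%, 88.0% and 100% of 200 genes changed 1.5-fold, 2-fold and 4-fold were recovered. Every simulated gene had the same spread in all samples and only those 200 genes changed, so these shares are not the power in these data. Loci were matched by symbol to GENCODE 29.

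The members and lists were chosen with earlier results of these data known. Beside the members, partner genes of the same steps and, per list, the 2 called genes that rose most and the 2 that fell most over all kept cells (mean log2 CPM of at least 3) were named.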

Additional observations from a re-analysis of the deposited data

Results flagged for a closer look

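For 9 of the 10 genes the level differed between trophectoderm/amnion-like and mesoderm/mesenchyme-like cells of the same blastoid samples by a direct test of the difference (edgeR, sample as a block, adjusted p under 0.05), beside 51.0% of all 13936 genes tested. With no block 4 members were called, beside 32.9% of genes, and with DESeq2 5, beside 23.6%. The log2 differences were 2.41 for SLC2A1, 4.11 for SLC2A3, 1.26 for GAPDH, 0.39 for LDHA, 0.30 for PGK1, 0.21 for TPI1, 0.17 for ENO1, -0.41 for PDK1 and -1.01 for PFKFB3. HK2 was the other member, at -0.23 (edgeR adjusted p = 0.445). Groups of 2 samples are too small to test for a sample that stands apart.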

How the results depend on the processing

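Of 884 values of single members under an alternative, 769 were counted as unchanged, 58 lost the call and 35 gained it. Unchanged meant the same sign and side of the threshold, or a value not called in either setting, whatever its sign. For ratios and shares of cells outside the edgeR fits it meant the same sign only. Of those ratios and shares 18 changed sign, and 4 further values turned sign with a call on either side. The 4 were SLC2A3 in pluripotent-like cells against hESC with finer clusters (-0.55) and the marker gate (-0.83), SLC2A1 in pluripotent-like against mesoderm/mesenchyme-like cells with the marker gate (-0.31), and TPI1 in trophectoderm/amnion-like against mesoderm/mesenchyme-like cells without blastoid 3 (-0.0077, against 0.1669 without blastoid 4, both untested ratios). The cause was not tested. The counts above include fits with 1 library left out, whose calls depend on which pair remains.

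Leaving out 1 library each in turn moved the genes called over all kept cells from 8157 to between 4896 and 10157 and the members from 5 to between 2 and 9. In pluripotent-like cells it moved them from 3460 to between 1409 and 3508 and from 2 to between 1 and 4, and in mesoderm/mesenchyme-like cells the members went from 5 to between 4 and 9. With DESeq2 the pluripotent-like comparison called 1686 genes and 1 member, and with sums thinned to the smallest 1609 genes and 1 member. Members called there were 4 without shared barcodes (beside 21.9% of genes) and 4 with the marker gate (beside 34.8%).

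Within blastoids, the fit with no replicate block called 4590 genes and 4 members for trophectoderm/amnion-like against mesoderm/mesenchyme-like cells (7103 and 9 with the block), 3088 and 1 for pluripotent-like against mesoderm/mesenchyme-like (4778 and 7) and 3203 and 4 for pluripotent-like against trophectoderm/amnion-like (4856 and 7). In that order these were 32.9%, 22.2% and 23.0% of genes tested, against 51.0%, 34.3% and 34.8% with the block. Thinned sums called 2882, 2616 and 2891 genes in the same order. DESeq2 called 3881 (23.6%), 2900 and 2984 genes, with 5 members in the first. Without shared barcodes the pluripotent-like comparisons called 2566 genes (20.6%) with 4 members and 2564 genes (20.5%). The marker gate called 4 members in the last, beside 43.0% of genes. No paired analysis was possible because the blastoid and hESC samples share no replicate numbers. Depth limits HK2 and PFKFB3 in pluripotent-like blastoid cells, with 3 to 9 UMIs per library.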
